A study of Sus scrofa with 5 samples.

Results

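FCN1 monocyte-like cells were the cells of the piglet cecum that carried transcripts of ficolin-1 together with those of classical monocytes, with few or none of complement C1q and of the scavenger receptor MARCO, and none of the epithelial adhesion molecule EPCAM. A cell was taken as a member when it had at least 200 detected genes, at least 2 unique molecular identifiers (UMIs) of FCN1, at least 2 UMIs summed over S100A9, S100A12, CD14 and IL1B, no more than 4 UMIs summed over C1QA, C1QB and C1QC, no more than 1 UMI of MARCO and no UMI of EPCAM. The members were therefore chosen from their own counts of these 10 genes, and every value of these genes below is a description of the choice and not a finding. The rule picked 1688 of the 72701 cells kept over the whole series, which is 2.32%.

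The study followed the cecal mucosa of male large white piglets that had only maternal milk, from birth (d0) to d21, with steps at d1, d7 and d14, by droplet-based single-cell RNA sequencing of the 3′ ends of transcripts. Each age was a single library, into which cells of 5 piglets were pooled after release with EDTA and trypsin. Piglets cannot be separated within a library and no spread between animals can be measured, so no test between ages is possible, no p-value is given, and the intervals below are 95% intervals that cover counting error only. Age and library cannot be told apart in any comparison. In age order the libraries held 15218, 14142, 10272, 16177 and 16892 kept cells, with medians of 2859, 3005, 2340, 4121 and 2587 UMIs per cell. A UMI marks 1 captured transcript molecule.

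Monocytes leave the blood for the intestinal wall throughout life, and there they are known to mature into macrophages that take up debris and present antigen on class II molecules. Ficolin-1 is a lectin of the innate immune system that binds sugars on microbes, S100A8, S100A9 and S100A12 are calcium-binding alarmins of monocytes and neutrophils, CD14 is a co-receptor for bacterial lipopolysaccharide, and IL1B encodes the cytokine interleukin 1β. C1q, made by mature tissue macrophages, starts the classical complement pathway. In the Sscrofa11.1 assembly FCN1 lies on chromosome 1 from 274125666 to 274132917, next to its relative FCN2, and the 3 alarmin genes lie together on chromosome 4 between 96209670 and 96238989.

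The rule was applied in steps. In age order, 46, 125, 916, 1507 and 391 cells had at least 2 UMIs of FCN1. The requirement for the monocyte genes left 33, 104, 672, 980 and 236 of them, and the limit on C1q removed most further cells at d14, where 851 were left. The last step, the absence of EPCAM, took the d1 cells from 97 to 60 and those of d14 from 818 to 804. The final numbers were 22, 60, 598, 804 and 204 members. Over all libraries, 255 members held exactly 2 UMIs of FCN1, and 333 cells that met every other condition held 1. At the edge of the monocyte sum, 201 members held 2 UMIs and 284 excluded cells held 1. The limits on C1q and MARCO had few cells near them, with 11 members at a C1q sum of 4 against 2 cells at 5, and 37 members with 1 UMI of MARCO against 16 cells with 2.

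Cells of types that should lack FCN1 were read for comparison. In T cells, taken as cells with at least 2 UMIs of CD3E and no EPCAM, 2 or more UMIs of FCN1 were seen in 0 of 167 cells at d0 and 0 of 116 at d1, and in 2.39%, 2.54% and 0.472% at d7, d14 and d21, at median depths of 4949, 4643 and 4666 UMIs. The cells so taken as T cells included 30, 58 and 16 members at these ages, which hold 2 or more by the rule. In cells with at least 2 UMIs of EPCAM the shares were 0.0636%, 0.544%, 2.30%, 3.21% and 0.634% from d0 to d21. The members held 46.5%, 51.2%, 67.0%, 60.5% and 58.4% of all FCN1 counts of their libraries. The gene was also present in other myeloid cells, and 90.9% of the 33 cells with at least 2 UMIs of MARCO at d7 and 54.2% of the 264 such cells at d14 held 2 or more. FCN1 alone therefore did not delimit the members.

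Members made up 0.145% (0.0906 to 0.219%) of cells at d0, 0.424% (0.324 to 0.546%) at d1, 5.82% (5.38 to 6.29%) at d7, 4.97% (4.64 to 5.32%) at d14 and 1.21% (1.05 to 1.38%) at d21, with exact Clopper-Pearson intervals. The log2 ratio of shares was 3.78 (3.40 to 4.16) for d7 against d1, −0.23 (−0.38 to −0.08) for d14 against d7 and −2.04 (−2.26 to −1.82) for d21 against d14.

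The libraries differed widely in how many cells were leukocytes. Cells with a UMI of PTPRC, which encodes the leukocyte antigen CD45, numbered 1096 at d0 and 1726 at d1, and 7003 at d7. Among these cells members made up 1.46% (0.837 to 2.36%) at d0, 3.24% (2.46 to 4.19%) at d1, 6.57% (5.999 to 7.174%) at d7, 6.86% at d14 and 1.63% at d21. On this scale the log2 ratio for d7 against d1 was 1.02 in place of 3.78, and that for d14 against d7 was 0.06 (−0.10 to 0.22) in place of −0.23. The lower share at d21 than at d14 had a log2 ratio of −2.07 on this scale. When cells were thinned to 1000 UMIs and shallower ones left out, which kept 7896 cells at d7 and 14345 at d14, the share was 3.34% at d7 and 1.74% at d14, a log2 ratio of −0.95. Without members that held 2 or more UMIs of markers of T, B, plasma, mast, epithelial or stromal cells, 7, 6, 234, 204 and 44 members were left in age order, which is 0.046%, 0.0424%, 2.28%, 1.26% and 0.261% of cells, and the log2 ratio for d7 against d1 was 5.75. With members limited to cells without C1q the log2 ratio for d14 against d7 was −0.67, and without a limit on C1q it was −0.10 (−0.25 to 0.04). With at least 3 UMIs of FCN1 it was −0.12 (−0.29 to 0.04). The size of the difference between d7 and d14 thus moved with the depth and the limits, and its interval included 0 under the last 2 of these limits and among PTPRC cells.

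**Figure D1:**
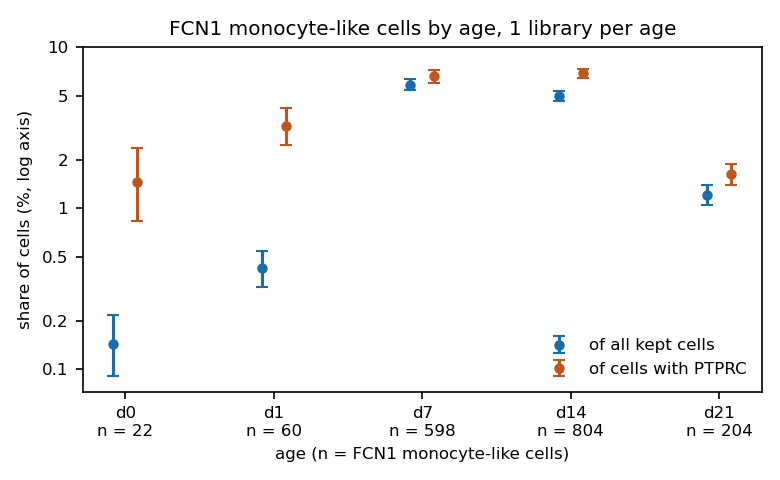
Share of FCN1 monocyte-like cells (%, log axis) by age from d0 to d21, as a share of all kept cells (blue) and of cells with a UMI of PTPRC (orange), with exact 95% intervals for counting error and 1 library per age. The share of all cells ran from 0.145% at d0 to 5.82% at d7, whereas among PTPRC cells it started at 1.46% and was 6.57% at d7.

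Members differed in depth between libraries. They had medians of 2752, 2166, 2416, 5936 and 4636 UMIs and 988.5, 899, 994.5, 1918 and 1609 genes from d0 to d21. Mitochondrial transcripts took 9.35%, 9.72%, 5.82%, 4.49% and 6.33% of their counts, against 23.7%, 11.04%, 8.95%, 5.51% and 7.94% over all cells of the same libraries. Any 2 libraries shared between 37 and 79 cell barcodes, and 1 barcode belonged to members of 2 libraries. No doublets were removed. The T cell condition was met by no member at d0 and d1, and by 30, 58 and 16 members at d7, d14 and d21, which is 5.02%, 7.21% and 7.84%.

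The label was checked against gene lists of cell types. Levels are given below as summed counts of the members per 10000 of all their counts. TYROBP, a signalling adaptor of myeloid cells, stood at 30.8, 35.2, 30.2, 27.4 and 20.1 from d0 to d21, against 0.376, 1.24, 3.52, 6.98 and 2.11 in the other cells. CSF1R, the receptor for macrophage colony-stimulating factor, was at 3.87, 3.39, 4.39, 6.20 and 3.66. Of 24 monocyte genes, 12, 17, 15, 15 and 15 had a level of at least 0.5. CD36, CD93, ITGAM, VNN1 and AQP9 were under this level in the libraries from d1 to d21. Of 15 genes shared by myeloid cells, 13 reached it in each library.

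Neutrophil genes were also present. The summed level of 17 such genes was 31.8, 26.0, 18.5, 14.9 and 8.40 from d0 to d21, against 2.28, 2.58, 6.02, 4.04 and 2.92 in the other cells. TGM3, a transglutaminase, led the list at every age except d1, where IL1R2, the decoy receptor for interleukin 1, led with 9.01. CXCR2, the chemokine receptor that draws neutrophils to tissue, was at 1.70, 0.760, 1.12, 0.403 and 0.241. LTF and LCN2, which encode granule proteins that bind iron or its carriers, were at 1.05 and 1.70 at d1 and under 0.5 at the other ages. MPO, ELANE and AZU1 stayed under 0.5 in the libraries from d1 to d21. Monocytes and neutrophils share FCN1, S100A9, S100A12 and CD14, so the rule does not separate them. The part of neutrophils in the age differences below was not tested.

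Markers of other cell types were also found. Members with 2 or more UMIs of them made up 68.2%, 90%, 60.9%, 74.6% and 78.4% in age order. The summed level of 12 T cell genes in members was 0, 0.526, 3.46, 3.32 and 4.52 from d0 to d21, and that of 14 epithelial genes 6.04, 7.31, 3.40, 0.416 and 1.34, against 112, 79.3, 93.6, 13.5 and 20.1 in the other cells. Of 13 genes of Paneth and goblet cells, LYZ and FOLR1 carried nearly the whole sum at each age, and MMP7, REG3G, MUC2, SPINK4 and PLA2G2A were under 0.5. Of 12 genes of NK and cytotoxic cells the summed level was 0.774, 9.71, 15.2, 19.8 and 30.8 in members, against 4.40, 4.74, 57.4, 70.1 and 141.2 in the other cells. For 15 stromal and endothelial genes it was 2.01, 5.67, 1.23, 13.4 and 6.04, against 0.773, 32.9, 4.16, 64.6 and 16.4, and for 11 B and plasma cell genes it reached 9.66 at d14, against 29.04. HBB carried an erythroid sum of 15.9 at d7, against 47.9. The part of RNA from other cells in the members' values was not tested. Of 15 proliferation genes 2, 4, 4, 3 and 4 had a level of at least 0.5 in age order, and their sum was 9.91, 9.65, 12.5, 13.3 and 12.1, against 5.76, 10.7, 31.6, 30.4 and 38.6 in the other cells. It was led by HMGB2, a chromatin protein, at d0 and d1, and by the tubulin gene TUBA1B later, while MKI67, TOP2A and CDK1 were under 0.5.

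FCN1 and the 4 genes of the monocyte sum, none of which the rule required on its own, were at their highest at d1. FCN1 itself stood at 16.4 (13.4 to 19.9) at d0, 31.7 (29.1 to 34.5) at d1, 22.8 (22.2 to 23.4) at d7, 16.7 (16.4 to 17.1) at d14 and 19.1 (18.4 to 19.9) at d21, with exact Poisson intervals. S100A9 was at 31.6, 80.2, 28.6, 10.0 and 12.4, and S100A12 at 14.1, 46.5, 10.96, 5.30 and 7.41. At d0 the alarmins rested on few cells, since S100A9 was found in 22.7% of the 22 members and 1 cell held 41.2% of its counts. At d1 it was found in 81.7% of members and the highest cell held 14.0%. CD14 was at 5.73, 11.8, 6.39, 3.86 and 2.98, and IL1B at 6.20, 22.4, 12.3, 5.24 and 4.74. Members with all 4 of S100A9, S100A12, CD14 and IL1B made up 51.7% at d1, 28.8% at d7, 19.7% at d14 and 16.7% at d21. C1q transcripts were absent from 95.5%, 85.0%, 97.7%, 71.9% and 96.1% of members.

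S100A8, which was not in the rule and whose protein pairs with that of S100A9, was at 10.2, 16.4, 7.67, 2.15 and 3.07 in age order. In the other cells it did not pass 0.166 at any age. LYZ, which encodes lysozyme, an enzyme that cuts bacterial cell walls, was at 12.1, 39.9, 30.6, 25.5 and 28.5. G0S2, an inhibitor of fat breakdown that is abundant in activated blood leukocytes, was at 12.2, 61.8, 25.5, 6.17 and 16.2. At d14 it stood below both neighbouring ages, with log2 ratios of −2.03 for d14 against d7 and 1.38 for d21 against d14. FOLR1, a folate receptor, varied little, at 23.2, 28.4, 23.9, 29.9 and 20.4. The annotation holds 2 loci under the symbol FOLR1 on chromosome 9, so its counts may join or divide reads of neighbouring copies. The study used FCN1, LYZ, G0S2 and FOLR1 among its markers of Paneth-like cells, and its text also singles out REG4, HSPA6 and CD74 in them.

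An uncharacterised gene, LOC100516039, was among the best separated. It lies on chromosome 12 from 39591521 to 39595639, in a stretch of chemokine genes that holds CCL14, CCL16 and CCL5. Its level was 26.5 at d0, 78.5 at d1, 25.5 at d7, 10.4 at d14 and 6.41 at d21, and it was found in 72.7%, 93.3%, 84.3%, 75.4% and 68.1% of members. In T cells it was at 0.0229, 0.0529, 0.393, 0.219 and 0.0366. A second uncharacterised gene, LOC100512873, lies beside SLPI on chromosome 17 and stood at 1.70, 14.3, 6.66, 3.04 and 6.69, but at d0 and d1 it was higher in the other cells, at 4.45 and 21.1.

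**Figure D2:**
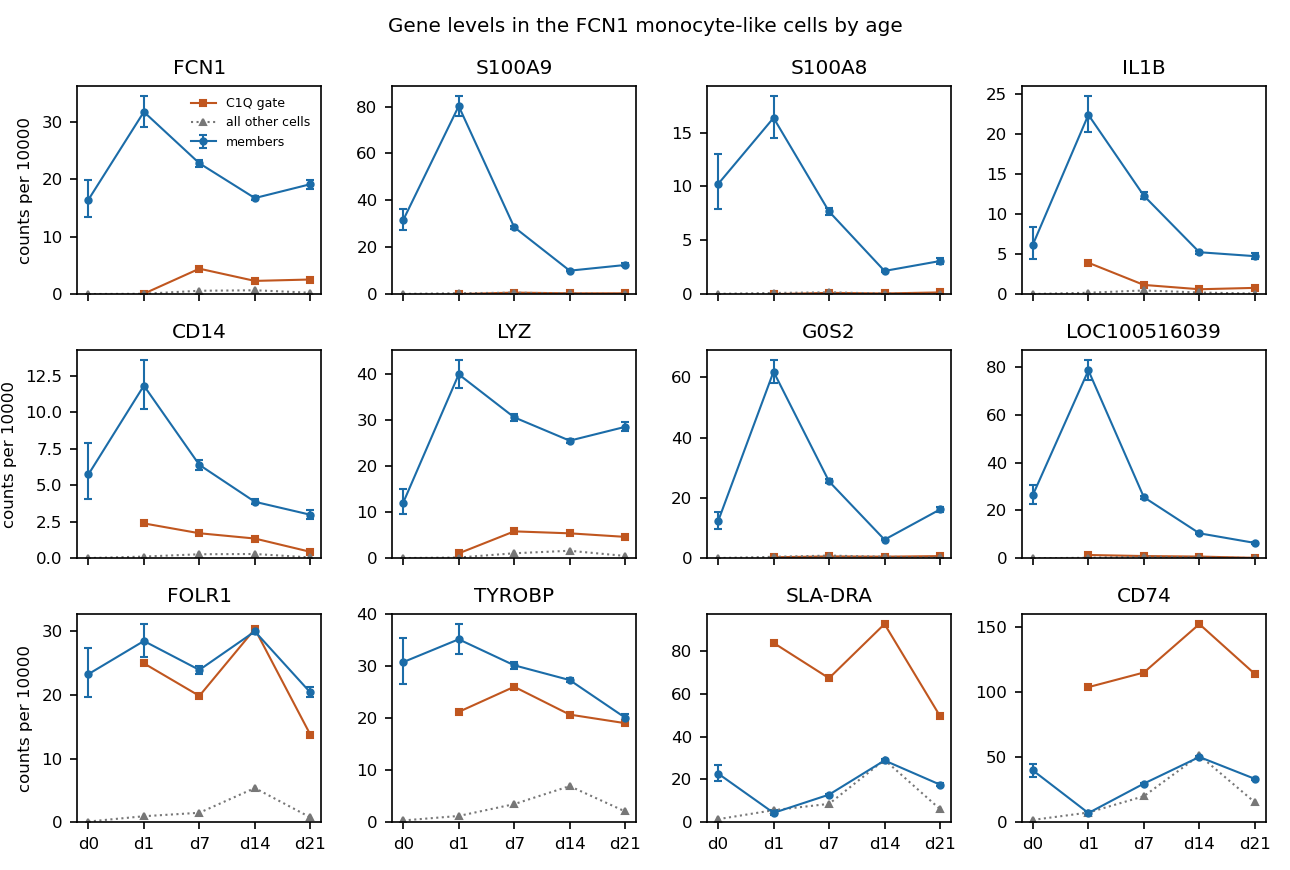
Levels of 12 genes (counts per 10000) by age in FCN1 monocyte-like cells (blue, with exact 95% Poisson intervals), in cells with a C1q sum of at least 5 (orange, d1 to d21) and in all cells that were not members (grey). FCN1, S100A9, S100A8, IL1B, CD14, LYZ, G0S2 and LOC100516039 were highest at d1 and low in the other cells, while SLA-DRA and CD74 were at their lowest at d1 and far under those of C1q cells.

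The members were then set beside 3 other groups of myeloid cells of the same libraries. The C1Q gate held 1435 cells with a C1q sum of at least 5, no more than 1 UMI of MARCO and no EPCAM. The FLT3 gate, with features of dendritic cells, held 612 cells with a UMI of FLT3, at least 5 of SLA-DRA, no more than 1 of FCN1 and of C1q, and none of MARCO, EPCAM and 4 markers of lymphocytes and cross-presenting dendritic cells. The MARCO gate held 319 cells with at least 2 UMIs of MARCO and no EPCAM. A gene was called when its level, with 0.1 per 10000 added, differed at least 2-fold in the same direction in every library that had at least 50 cells of both kinds, and when its level reached 0.5 per 10000 in at least 1 of them. The genes of the rules were left out. Since the rules read genes of the same cells, these are descriptions of what was separated. A gene could pass the filter on its level through 1 of the 2 groups alone, which favours calls toward that group.

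Against the C1Q gate, the members were higher for 11 of 20 monocyte genes and lower for 6 of 18 antigen presentation genes in every library. Of 3759 genes, 62 (1.65%) were higher and 40 (1.06%) lower in all 4 libraries from d1 to d21, 2.71% either way. Without members with 2 or more UMIs of markers of other cells, which left fewer libraries, 227 were higher and 251 lower. The 11 monocyte genes included S100A8, LYZ, VCAN, TREM1, MCEMP1, CSF3R and THBS1, while CD36, a receptor for fatty acids, was lower. TREM1, a receptor that amplifies inflammation, stood at 2.05, 3.73, 2.02 and 1.30 in members from d1 to d21, and at 0.00868, 0.177, 0.141 and 0.0401 in the C1Q gate. LYZ was at 39.9, 30.6, 25.5 and 28.5 against 1.07, 5.84, 5.42 and 4.65. Of 10 neutrophil genes 6 were higher, namely IL1R2, TGM3, ARG1, CHI3L1, PGLYRP1 and CSF3R. In the C1Q gate 17 neutrophil genes summed to 12.9, 2.49, 2.20 and 1.14 from d1 to d21, against 26.0, 18.5, 14.9 and 8.40 in members. The 10 genes thus passed the filter mainly through the members, and their count follows in part from it. The median log2 ratio of the monocyte genes was 2.45, 1.36, 1.15 and 1.27 from d1 to d21, where the median of all tested genes lay between −0.04 and −0.06.

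On the lower side stood CST3, which encodes the protease inhibitor cystatin C, at 9.01, 4.61, 7.27 and 4.40 in members from d1 to d21 against 124, 24.2, 32.5 and 23.6. SELENOP, a selenium carrier of resident macrophages, was at 0.702, 0.181, 0.922 and 0.257 against 14.7, 1.56, 8.45 and 2.04. MRC1, the mannose receptor, had no count at d1 and was at 0.0548, 0.274 and 0.0160 at d7, d14 and d21, against 2.79, 0.886, 2.64 and 0.802. These made up the 2 of 18 resident macrophage genes that were lower in every library. CD163, the scavenger receptor for haemoglobin, did not separate the groups, at 1.81, 1.12, 2.41 and 1.24 in members against 3.83, 1.08, 2.67 and 0.381. Of 18 antigen presentation genes 6 were lower, namely SLA-DRB1, SLA-DQA1, SLA-DQB1, SLA-DOA, CD74 and CIITA, the class II transactivator. SLA-DRA was left out because the FLT3 gate reads it. CD74, the class II chaperone, was at 7.19, 29.7, 50.1 and 33.4 against 104, 115, 152 and 114. Class I genes were not among them, and SLA-1, SLA-2 and SLA-3 share much sequence, so that their reads may be split among them.

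Smaller groups of genes separated in the same comparison. Of 16 antimicrobial and oxidase genes, 4 were higher in members in every library, namely the protease inhibitor gene SLPI, the prostaglandin synthase gene PTGS2, ACOD1, which makes itaconate, and the superoxide dismutase gene SOD2, and PLA2G7, which encodes a phospholipase, was lower. Of 18 coagulation and matrix genes 5 were higher (THBD, F13A1, TIMP1, SERPINB10 and ANXA1) and SPP1, osteopontin, was lower. Without members with markers of other cells the log2 ratio of SPP1 in the libraries left was 0.58 in place of −3.04. F13A1, the A chain of coagulation factor XIII, was at 3.45, 1.45, 3.46 and 1.82 in members and at 0.0520, 0.458, 1.32 and 0.381 in the C1Q gate. Of 17 cytokine genes 3 were higher, OSM and the growth factor genes EREG and HBEGF. No gene among 22 surface receptors, 15 glycolysis and hypoxia genes and 25 interferon-stimulated genes was called in all 4 libraries.

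Against the FLT3 gate, with 3 libraries, 252 of 3551 genes (7.10%) were higher and 147 (4.14%) lower in every library, 11.2% either way. Of 17 monocyte genes 13 were higher and 1 was lower. The 7 neutrophil genes past the filter were all higher. In the FLT3 gate 17 neutrophil genes summed to 1.54, 1.35 and 0.744 from d7 to d21, against 18.5, 14.9 and 8.40 in members. The 7 genes thus passed the filter mainly through the members, and their count follows largely from it. Of 11 resident macrophage genes 7 were higher, among them CD163, APOE, HMOX1 and LGMN, and MRC1 was lower. Of 22 surface receptor genes 10 were higher, including TLR2 and TLR4, C5AR1 and FCGR3A, the Fc receptor CD16, which stood at 23.7, 24.6 and 34.2 against 3.54, 3.34 and 3.72. Monocyte genes summed to 99.94, 67.45 and 80.9 in members against 13.47, 16.91 and 9.899. Resident macrophage genes summed to 25.84, 30.1 and 28.95 against 6.46, 8.821 and 6.361, and surface receptor genes to 50.85, 52.22 and 56.92 against 17.95, 17.45 and 21.15. Genes of these lists could thus pass the filter more often through the members, and the counts follow in part from it. The rules also held FCN1 and C1q low in the FLT3 gate. Dendritic cell genes went the other way, with 8 of 11 lower, such as LAMP3, CCR7 and BATF3. In members 17 dendritic cell genes summed to 5.13, 4.48 and 4.84 from d7 to d21, against 16.1, 10.4 and 17.9 in the FLT3 gate. Of the 20 listed, 2, 3 and 4 reached the level of the filter in members at these ages. The 11 genes thus passed the filter mainly through the FLT3 gate, and their count follows largely from it. Antigen presentation genes were lower for 7 of 20. The FLT3 gate requires at least 5 UMIs of the class II gene SLA-DRA, so this count follows in part from its rule.

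The MARCO gate had at least 50 cells at d14 only, so its comparison rests on 1 library. There 98 of 2998 genes (3.27%) were higher in members and 127 (4.24%) lower, 7.51% either way. With 0.5 in place of 0.1 added the balance turned, to 61 higher and 48 lower. Monocyte genes were higher for 9 of 15, and 1 was lower. The 6 neutrophil genes past the filter were all higher. Since 17 neutrophil genes summed to 2.29 in the MARCO gate and 14.9 in members, they passed mainly through the members, and their count follows largely from the filter. Of 13 resident macrophage genes 5 were lower, namely SELENOP, APOE, SLC40A1, GPNMB and CTSD. APOE, the lipid carrier, was at 2.54 in the members and SLC40A1, the iron exporter ferroportin, under 0.5.

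**Figure D3:**
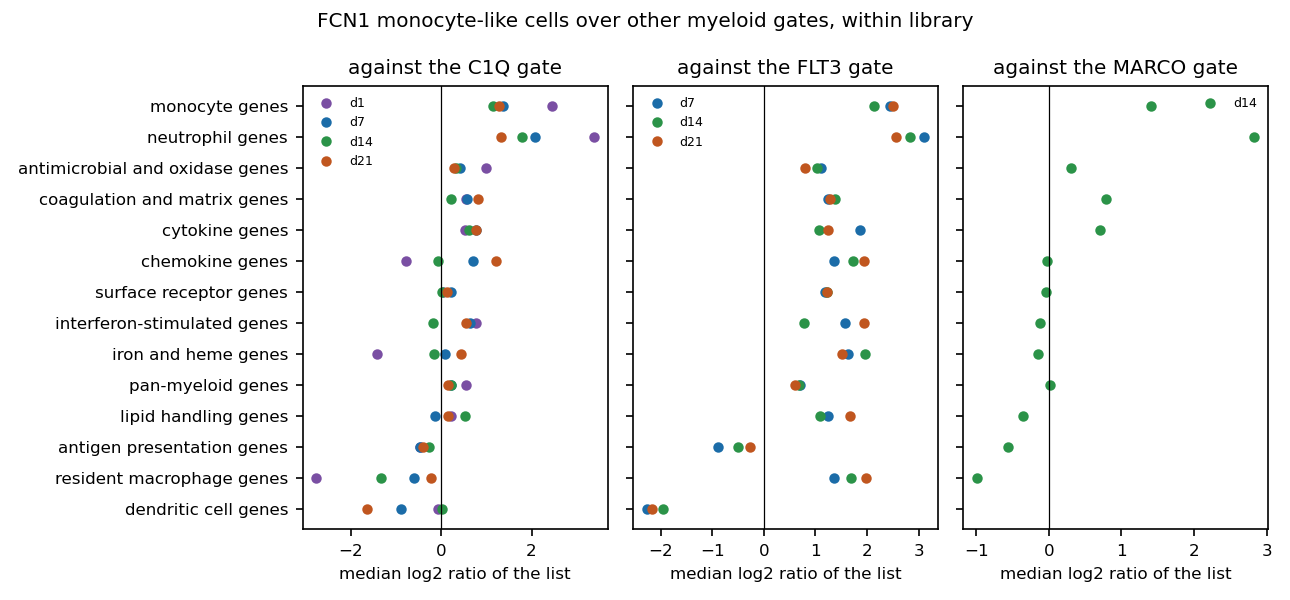
Median log2 ratio of the level in FCN1 monocyte-like cells over that in the C1Q, FLT3 and MARCO gates, for 14 gene lists (rows, shown where at least 5 genes passed the filter), with 1 point per library. The monocyte and neutrophil lists lay above 0 in every library and gate, and the antigen presentation list lay under 0 in every library and gate. Genes could pass the filter through 1 group alone, and the FLT3 gate was chosen in part by the class II gene SLA-DRA, so these medians follow in part from the rules.

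More genes passed 2-fold between d1 and d7 than between the later ages. Of 2817 genes, 271 (9.62%) were at least 2-fold higher at d7 and 139 (4.93%) lower, 14.6% either way. At 1000 UMIs per cell the counts were nearly balanced, at 516 and 463, and with 0.5 in place of 0.1 added they were 91 and 64. With 60 members at d1, 1 count there is worth 0.0585 per 10000 and the d1 levels are the least precise of these 4 ages. In each comparison of ages a gene could pass the filter through 1 age alone, which favours calls toward that age. 

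Interferon-stimulated genes were higher at d7 for 15 of 24 and lower for none, with a median log2 ratio of 1.15 against 0.05 over all tested genes. In members 14 genes of the list reached the level of the filter at d1 and 24 at d7. The 24 genes thus passed the filter through d7, and their count and median follow in part from it. IFI6, an interferon-induced mitochondrial protein, was at 17.2 at d1 and 52.7 at d7, ISG15, a ubiquitin-like modifier, at 4.56 and 15.4, and MX1, an antiviral GTPase, at 1.17 and 5.03. The same list was higher for 13 of 19 genes in the C1Q gate of the same libraries. In T cells 11 of 15 were higher and 1 was lower. The list's medians were 1.37 and 1.65, against 0.12 and 0.32 over all tested genes of these groups. In the later comparisons the medians over all tested genes lay between −0.07 and 0.06 in both groups. The summed level of 33 genes in all other cells was 36.5 at d1 and 84.3 at d7, and in the members 78.0 and 167.

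Heat shock genes were among those with the largest ratios. HSPA6, a stress-inducible chaperone, had 2 counts in 60 members at d1, a level of 0.117, and stood at 41.4 at d7, where 78.9% of members held a UMI of it. HSP70.2 was at 2.63 and 40.3, DNAJB1, its co-chaperone, at 2.28 and 36.5, HSPH1 at 1.75 and 13.01, and BAG3 at 0.585 and 9.40. HSPA6 and HSP70.2 belong to a family of closely similar genes whose reads may be shared. Other cells of the d7 library also had more of these transcripts, with HSPA6 at 0.792 at d1 and 9.11 at d7 in all other cells and at 0.720 and 26.9 in the C1Q gate. The summed level of 7 heat shock genes was 46.0 at d1 and 266 at d7 in members, 51.0 and 156 in the C1Q gate, and 49.5 and 82.2 in T cells. What part the handling of the tissue had in these values was not tested.

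Immediate early and stress genes as a list were higher for 14 of 28 with a median of 0.97, and lower for none. They included FOS, JUN, DUSP1 and ATF3, and 5 of the 14 were heat shock genes. JUN was at 14.4 at d1 and 58.3 at d7. In the C1Q gate 3 of 28 were higher and 3 lower, with a median of −0.02 against 0.12 over all its tested genes. In T cells 1 of 27 was higher and 9 were lower, with a median of −0.63 against 0.32. Whether this difference between cell groups is larger than the spread between animals could not be tested.

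Of 17 antigen presentation genes 5 were higher at d7, all of them class II genes or CD74, and none was lower. In the C1Q gate 7 of 19 were higher, with a median log2 ratio of 0.61 against 0.46 in the members. In T cells 0 of 14 were higher and 0 lower, with a median of 0.20. The sum of 7 class II genes was 24.5 at d1 and 74.1 at d7 in members, 346 and 337 in the C1Q gate, and 22.3 and 18.2 in T cells. SLA-DRA was at 4.45 (d1) and 12.9 (d7), SLA-DRB1 at 1.52 and 7.46, and CD74 at 7.19 and 29.7. The d0 level of SLA-DRA was 22.8 and that of CD74 39.8, in 22 cells, so that d1 stood below both neighbours. In the other cells CD74 was at 1.93 (d0), 7.56 (d1) and 20.1 (d7).

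Of 17 monocyte genes 4 were lower at d7 and 1 higher, and of 9 neutrophil genes 3 were lower and 1 higher. RETN, resistin, which in monocytes and neutrophils is a secreted inflammatory peptide, was at 35.8 at d1 and 3.26 at d7, a log2 ratio of −3.42, and it was found in 58.3% and 31.3% of members. SAA3, an acute phase serum amyloid, was at 38.4 and 2.77, but at d1 it was found in 15% of members and 1 cell held 40% of its counts. CCL20, a chemokine that draws dendritic and B cells, was at 3.27 and 0.464, and IL1R2 at 9.01 and 2.77. Of 14 cytokine genes 5 were higher at d7 (IL18, OSM, CSF1, TNFSF13B and LTB) and 2 lower (IL27 and AREG). Several of the lower genes were epithelial transcripts that were also found in the other cells of the d1 library, such as S100G, at 3.68 in members and 25.9 in the other cells at d1 and at 0.177 and 5.00 at d7, and APOA1, at 1.87 and 7.59 at d1.

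From d7 to d14, 41 of 2766 genes (1.48%) were at least 2-fold higher and 102 (3.69%) lower, 5.17% either way. Genes of stress and activation were lower at d14. They were 14 of 27 immediate early and stress genes, with none higher and a median log2 ratio of −1.03. IER3 was at 11.5 at d7 and 2.14 at d14, DUSP2 at 17.2 and 4.80, and NFKBIA, the inhibitor of NF-κB, at 17.2 and 5.203. In the C1Q gate 9 of 26 genes of the list were lower, and in T cells none was lower and 1 was higher. No heat shock gene of the list was among the lower ones, and HSPA6 was at 41.4 and 54.9. Of 14 cytokine genes 5 were lower, namely IL1A, OSM, CSF1, AREG and HBEGF, and none was higher. OSM, oncostatin M, was at 4.47 and 0.827.

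At d14, 2 of 17 antigen presentation genes, SLA-DRA and SLA-DQB1, were at least 2-fold higher than at d7 and none was lower, and the list's median log2 ratio was 0.20 against 0.07 over all genes. In T cells 5 of 15 were higher, with a median of 0.74, and their class II sum was at 18.2 (d7) and 45.9 (d14). In the C1Q gate 0 of 19 passed 2-fold, with a median of 0.17. SLA-DRA was at 28.9, SLA-DQB1 at 17.6 after 8.51 at d7, and CD74, which did not pass 2-fold, at 50.1. In the other cells of these libraries CD74 was at 20.1 (d7) and 51.3 (d14), close to the members' values, and in the C1Q gate at 115 and 152. Of 24 interferon-stimulated genes 3 were lower at d14, ISG20, OAS1 and IRF1, and none was higher, with a median log2 ratio of −0.41. In the C1Q gate 3 of 23 were higher and none lower, with a median of 0.41, and in T cells 1 of 17 was higher.

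The genes with the largest ratios upward at d14 were headed by genes best known from other cells. LOC100152327, for which the annotation gives no name, was at 0.687 at d7 and 50.4 at d14 in members, and at 9.98 and 232 in the other cells. JCHAIN, the joining chain of secreted antibodies, was at 0.0211 and 8.25 in members and 0.630 and 23.7 in the other cells, and 1 member held 33.6% of its counts at d14. COL3A1, a collagen of stromal cells, was at 0.287 and 3.12, against 1.02 and 14.1. Of 8 stromal and endothelial genes 7 were higher at d14 in members, as were 7 of 8 in the C1Q gate and 7 of 8 in T cells. In members 0 of the 15 listed genes reached the level of the filter at d7, and 8 did at d14. The 8 genes thus passed the filter through d14 alone, and their count in members follows largely from it. The summed level of the 15 genes, which needs no filter, was 1.23 (d7) and 13.4 (d14) in members. It was 1.42 and 16.6 in the C1Q gate, and 1.29 and 16.8 in T cells. Likewise HBB, the β chain of haemoglobin, was at 15.6 in members at d7 and 0.00750 at d14, against 47.2 and 0.321 in the other cells, and 1 member held 44.2% of the d7 counts. The part of RNA from other cells in these values was not tested. With the 58 members that met the T cell condition at d14 and those of the other libraries left out, an alternative chosen after the data had been seen, 45 genes were higher and 112 lower. Without members with at least 3 UMIs of 10 defining genes of other cell types, also chosen after the data had been seen, 27 were higher and 107 lower. Members of over 3 times the median UMI count of their library numbered 100 of 598 at d7 and 17 of 804 at d14, and without them 124 genes were higher and 201 lower. Without members with 2 or more UMIs of markers of other cells the counts were 90 and 185, and at 1000 UMIs they were 102 and 155.

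From d14 to d21, 63 of 2797 genes (2.25%) were at least 2-fold higher and 31 (1.11%) lower, 3.36% either way. Interferon-stimulated genes were higher for 7 of 24, with a median of 0.88 against −0.03 over all genes. They were ISG15, ISG20, ISG12(A), RSAD2, GBP1, USP18 and HERC5. ISG12(A) was at 1.52 at d14 and 9.81 at d21, and was found in 17.3% and 43.6% of members. ISG15 was at 7.86 and 20.3. In the C1Q gate 0 of 23 genes of the list were past 2-fold, with a median of 0.04, and in T cells 0 of 18, with a median of 0.25. CXCL10, a chemokine induced by interferon, was at 7.99 (d14) and 17.7 (d21) in members and at 9.28 and 4.51 in the C1Q gate. After thinning to 1000 UMIs it was found in 11.7% of members at d14 and 35.9% at d21. The lower genes were headed by LOC100152327, at 50.4 and 3.53, and JCHAIN, at 8.25 and 0.827, followed after IL1R2 by TAGLN, ACTA2 and ADAMDEC1. The sum of 15 stromal and endothelial genes was 13.4 and 6.04 in members, 16.6 and 5.15 in the C1Q gate, and 16.8 and 4.93 in T cells. The part of RNA from other cells in these values was not tested.

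Chemokine and cytokine genes differed too. Of 11 chemokine genes 4 were higher at d21 (CXCL2, CCL4, CCL20 and CXCL10) and 2 were lower (CXCL13 and CXCL14). CXCL14, a chemokine of epithelial and stromal cells, was at 6.91 and 2.68 in members and at 35.4 and 4.93 in the other cells. Of 15 cytokine genes 5 were higher and 2 lower. The higher ones included the anti-inflammatory IL10, at 1.14 and 3.35, the macrophage growth factor CSF1, at 0.307 and 1.60, and amphiregulin, AREG, at 1.44 and 6.07. The lower ones were LTB and IL18, and IL18 was at 1.84 and 0.594. IL1R2 was at 2.21 and 0.450. CCL5, which led the NK and cytotoxic genes of the members from d1 to d21, was at 0.155, 7.13, 11.03, 14.9 and 25.5 from d0 to d21, and at 138, 47.2, 73.8, 104 and 177 in T cells, and GNLY in members did not pass 1.31. The part of lymphocyte RNA in the CCL5 values was not tested.

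Against d7, the d21 members had 49 of 2769 genes (1.77%) at least 2-fold higher and 63 (2.28%) lower, 4.04% either way. The balance turned to 112 higher and 102 lower without the filter on low levels, and to 153 and 143 at 1000 UMIs. Lower at d21 were 12 of 27 immediate early and stress genes and 5 of 7 neutrophil genes, and none of either list was higher. For the first list the C1Q gate had 3 of 27 genes higher and 3 lower, T cells had 5 of 24 higher and none lower, and the FLT3 gate had 8 of 27 higher and 1 lower. Of 17 neutrophil genes 7 reached the level of the filter in members at d7 and 4 at d21. The 7 genes thus passed the filter through d7, and their count follows in part from it. The summed level of the 17 genes, which needs no filter, was 18.5 at d7 and 8.40 at d21. Among 25 interferon-stimulated genes 2 were higher and 1 lower. SLPI, an inhibitor of neutrophil elastase, stood at 1.10 at d7 and 2.91 at d21, and GBP1, an interferon-induced GTPase, at 1.82 and 4.59. No gene among 15 glycolysis and hypoxia genes or 6 iron and heme genes passed 2-fold. FTH1, ferritin heavy chain, was at 151 and 145.

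**Figure D4:**
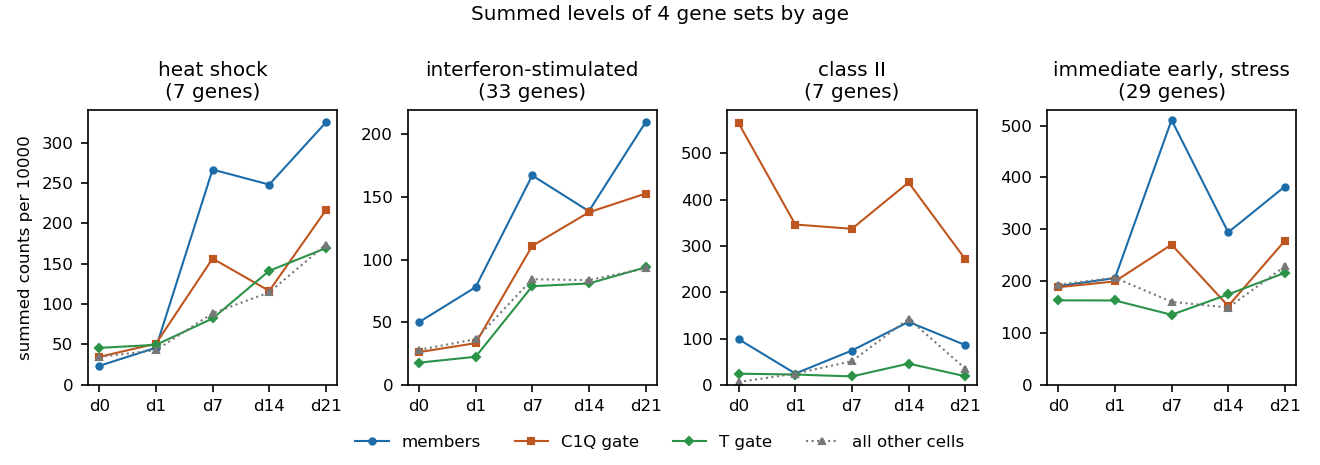
Summed levels (counts per 10000) of 7 heat shock, 33 interferon-stimulated, 7 class II and 29 immediate early and stress genes at each age in FCN1 monocyte-like cells (blue), the C1Q gate (orange, 46 cells at d0), the T gate (green) and all other cells (grey). Heat shock transcripts of members went from 46.0 at d1 to 266 at d7, and class II transcripts from 24.5 to 74.1, while class II transcripts of the C1Q gate were at 346 and 337.

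Members of 1 library were not alike. Each cell was thinned to 1000 UMIs, which left out 2, 6, 70, 10 and 12 members from d0 to d21. The 3 alarmins together had a median of 5 UMIs per 1000 at d1, with quartiles of 1.25 and 19, and medians of 1, 0 and 1 at d7, d14 and d21. The share of members without any was 22.2% at d1, 36.0% at d7, 55.3% at d14 and 44.8% at d21. The 7 class II genes had medians of 0, 2, 7 and 5 at these ages, and 53.7%, 26.1%, 4.28% and 7.81% of members had none. Interferon-stimulated transcripts had medians of 6, 17, 12 and 20, and heat shock transcripts of 4, 28, 25.5 and 32.

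Cells with more alarmin counts tended to have fewer class II counts. Spearman's rho between these 2 sums over the thinned cells was −0.25 at d1 (54 cells), −0.50 at d7 (528 cells), −0.42 at d14 (794 cells) and −0.48 at d21 (192 cells). These values are a description, since the cells of a library share their library and, after thinning, a fixed total, and 2 of the alarmins were in the rule. In the first principal component, computed without the genes of the rule, ribosomal genes took much of one end at the 4 ages from d1 to d21. At d7 it took 4.72% of the variance, with LOC100516039, NFKBIA, G0S2, JUNB, IER3, TREM1 and S100A8 at one end and CD74 with ribosomal genes at the other. At d14 it took 2.47%, from LOC100516039, DNAJB1, TGM3, TREM1 and S100A8 to ribosomal genes with SLA-DRA, SLA-DQA1 and CD74. At d21 ribosomal and class II genes, LGALS1 and VIM stood at one end and HSPH1, G0S2, NFKBIA and CCL5 at the other. At d1, with 54 cells, RETN, G0S2, ANXA1 and SOD2 faced ribosomal genes. The components took small parts of the variance.

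**Figure D5:**
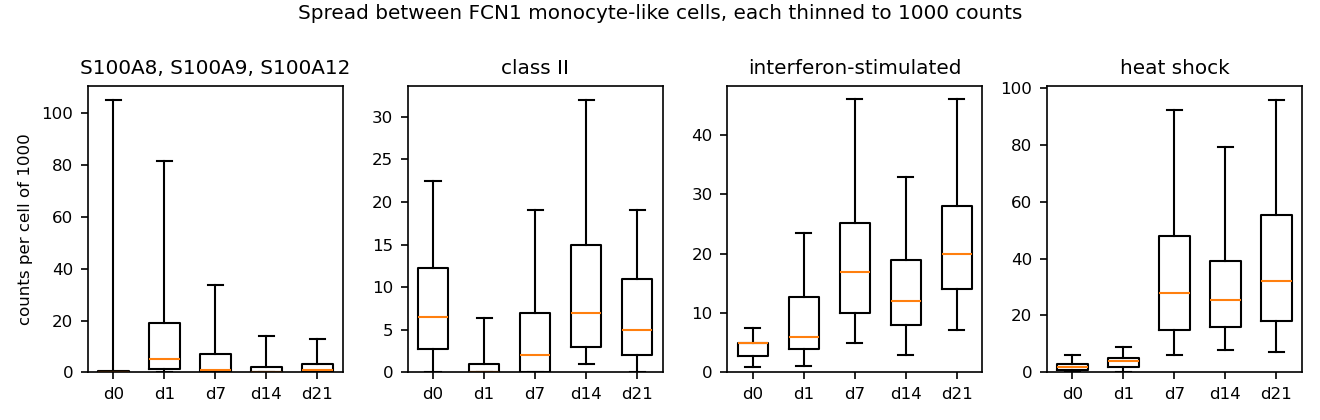
UMIs per cell, out of 1000 after thinning, of 3 alarmins, 7 class II, 33 interferon-stimulated and 7 heat shock genes in FCN1 monocyte-like cells of each age, with boxes from the lower to the upper quartile, lines at the median and whiskers at the 5th and 95th percentiles. Alarmin medians were 5 at d1 and 0 at d14, class II medians 0 and 7.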

How the data were processed

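Single cells of the cecal mucosa were sequenced in 5 libraries, 1 per age. According to the study's methods and processing notes, the authors made the deposited matrices of UMI counts, which are not normalised, with Cell Ranger 3.1.0 and STAR on the Sscrofa11.1 (susScr11) assembly, with the number of cells set by hand. All 20648 gene symbols matched the RefSeq annotation. The deposited matrices held 15350, 14142, 10824, 16273 and 16975 barcodes in age order. These are more cells than the study reports after its quality control, so the shares given here are not shares of the study's cells. Barcodes with at least 200 detected genes were kept, no doublets were removed, and libraries were not integrated. Members were found by fixed limits on 10 genes and not by clustering. Their counts were summed per library and given per 10000 counts. Genes at 0.5 per 10000 or more in either group were compared with 0.1 added, and a 2-fold difference was counted, in libraries with at least 50 cells of both kinds. Summed counts hold the cells of 5 pooled piglets, so depth limits only the counting error, which is the source of the 95% intervals, and UMIs keep amplified copies from being counted again. No test was run, since there is 1 library per age.

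The members and the 28 gene lists were chosen with earlier results of these data known. Genes named in the text come from the rule, the lists, the 20 highest genes, and the 10 largest differences in each direction of each comparison among genes at 1 per 10000 or more. Alternatives changed the limits of the rule, the kept cells, the added level, the filter, the weighting of cells, members with 2 or more UMIs of markers of other cells, and the depth, by thinning to 1000 or 500 UMIs. Leaving out members that met the T cell condition, members with 3 or more UMIs of 10 defining genes of other cells, members with very many UMIs, and each library in turn was chosen after seeing the data. The work used Python 3.11.15 with NumPy 2.4.6, pandas 2.3.3, SciPy 1.17.1 and matplotlib 3.10.9, and the scripts were tested on simulated data.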

Additional observations from a re-analysis of the deposited data

Results flagged for a closer look

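Between d14 and d21 the median of the chemokine genes had opposite signs in the members and in the C1Q gate. The median log2 ratio was 0.768 over 11 genes in the members and −0.53 over 10 genes in the C1Q gate. Single genes went both ways, with 4 higher and 2 lower past 2-fold in the members and 2 higher and 3 lower in the C1Q gate. In T cells 3 of 5 were lower and none higher, with a median of −1.22. In the FLT3 gate 2 of 6 were higher and 2 lower, with a median of 0.20 against −0.10 over all its tested genes. Among the genes of the list, CXCL10 was higher at d21 in the members, at 7.99 and 17.7 per 10000, and lower in the C1Q gate, at 9.28 and 4.51. With 1 library per age the difference was not tested. The C1Q gate held 84 cells at d21.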

How the results depend on the processing

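Among the alternatives run, the d14 share was above that of d7 only among PTPRC cells. With FCN1 at 1 UMI or more the shares were 0.58% (d1), 7.51% (d7), 5.59% (d14) and 1.40% (d21), with a log2 ratio of −0.42 for d14 against d7. With FCN1 at 3 or more they were 4.70% (d7) and 4.32% (d14). A monocyte sum of 4 or more gave 4.81% (d7), 3.65% (d14) and 0.888% (d21), with −0.40 for d14 against d7. Without a limit on C1q the d14 share was 5.59%, and with no C1q at all it was 3.57%, with −0.67 for d14 against d7 and −1.62 for d21 against d14. At 1000 UMIs per cell the shares were 0.0433% (d0), 3.34% (d7), 1.74% (d14) and 0.522% (d21), with log2 ratios of 2.99, −0.95 and −1.73 in age order. At 500 UMIs they were 0.0329%, 0.198%, 1.65%, 0.532% and 0.249% in age order, with 3.06, −1.63 and −1.10. Cells with at least 500 genes gave 6.69% (d7) and 5.40% (d14). Cells under 20% mitochondrial counts gave 0.337% (d0), 7.17% (d7) and 5.51% (d14), with −0.38 for d14 against d7. Among PTPRC cells the shares were 1.46%, 3.24%, 6.57%, 6.86% and 1.63%, the log2 ratio for d7 against d1 was 1.02, and that for d14 against d7 turned to 0.0623. Without members that held 2 or more UMIs of markers of other cells, the shares were 0.046%, 0.0424%, 2.28%, 1.26% and 0.261%, with 5.75, −0.85 and −2.28.

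The number of genes past 2-fold depended on how low levels were treated. In the order d7 against d1, d14 against d7, d21 against d14 and d21 against d7, it was 155, 74, 43 and 69 with 0.5 added, 1537, 262, 153 and 214 without a filter, 623, 250, 156 and 175 for the mean over cells, and 979, 257, 279 and 296 at 1000 UMIs. Against the gates, 0.5 added gave 45 (C1Q), 109 (MARCO) and 170 (FLT3), the mean over cells 169 (C1Q) and 413 (MARCO), and 1000 UMIs 510 (MARCO). Without members with markers of other cells it was 275 for d14 against d7 and 478 for the C1Q gate in the libraries left. The other comparisons between ages were left with under 50 members at d1 or d21 and gave no value. The MARCO and FLT3 gates have no value under this alternative. Without members that met the T cell condition it was 397, 157, 103 and 121 between the ages and 102 (C1Q), 244 (MARCO) and 419 (FLT3) against the gates. The split into higher and lower genes was 125 and 137 for d14 against d7 without a filter, and 516 and 463, 102 and 155, and 156 and 123 for the first 3 comparisons at 1000 UMIs. Without members with markers of other cells it was 227 and 251 against the C1Q gate. Without members of over 3 times the median UMI count it was 325 for d14 against d7 and 235 for d21 against d7.

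Of the medians of gene lists under these alternatives, 1576 stayed within 0.5 of their value on the log2 scale and 62 did not, and none that was past 2-fold turned. For the genes with the largest differences in each comparison, 1460 ratios stayed within 0.5, 398 did not and 2, both of SPP1, turned. Leaving out each library in turn gave 102 to 133 genes against the C1Q gate and 446 to 494 against the FLT3 gate. SPP1 turned to 0.27 for d21 against d7 with FCN1 at 3 or more, and to 0.58 against the C1Q gate without members with markers of other cells. The causes were not tested. No paired analysis was possible between ages because each age is 1 library. The gates were compared within each library, as a description, since the rules that define them read the same cells.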
